A study of Mus musculus with 6 samples.

Results

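The genes described here encode the integrins, the laminins and the parts of the hemidesmosome that hold basal keratinocytes to the basement membrane. They were chosen by name from the count tables. Every row whose symbol is that of an integrin α or β chain or of a laminin α, β or γ chain was taken, together with Col17a1, Col7a1, Dst, Plec, Cd151, Fermt1, Fermt2, Nid1, Nid2 and Hspg2, which gave 47 of 24453 rows. RNA sequencing covered skin cells sorted from mouse pups at day 0 after birth, in 3 libraries labelled 2KO, of genotype Ring1a-/- Ring1b-/-, and 3 libraries labelled control. Ring1 and Rnf2 encode RING1A and RING1B, the enzymes that give Polycomb repressive complex 1 its ubiquitin ligase activity. That complex holds genes silent on chromatin, and the series concerns it in skin epithelium. The strain, the sex, the alleles carried by the controls and any Cre driver of the deletion are not stated in the labels, nor is it stated whether each library came from a separate animal. P-values therefore measure the spread between these libraries, which may be technical.

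Integrins are surface receptors made of 1 α and 1 β chain. In the epidermis the α6β4 integrin binds laminin-332 outside the cell and, through plectin and the epithelial dystonin isoform, the keratin filaments inside it, and this assembly with collagen XVII and CD151 is the hemidesmosome. The β1 integrins link the matrix to actin at focal adhesions, with talin and the kindlins as activators. Laminin networks are joined to collagen IV by nidogens and perlecan, and collagen VII anchors the sheet to the dermis. Loss of several of these genes causes blistering of the skin.

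Both targeted genes were measured first, since they bear on the labels. Ring1 was at 1.84, 7.34 and 14.1 CPM in 2KO-labelled libraries and 19.5, 22.4 and 3.37 CPM in control-labelled libraries. The library labelled control replicate 3 thus went against its label, below 2KO replicates 2 and 3, and 2KO replicate 3 was the highest of its group. Rnf2 was at 75.3, 66.4 and 89.2 CPM in 2KO-labelled libraries and 67.7, 79.5 and 47.1 CPM in control-labelled libraries, and the ranges of the groups overlapped. The deleted exons are not named in the labels, so gene-wide counts are a weak check on the deletion. Groups are therefore named by their labels, and each direction is one between libraries so labelled. Total counts per library lay between 24.8 and 30.8 M (mega), so that 1 count was worth between 0.0323 and 0.0392 CPM (counts per megacount, scaled between libraries by TMM). Xist was high in 2KO replicates 1 and 2 and in control replicate 3 (4555 to 5361 CPM) and low in the other 3 libraries (2.48 to 10.4 CPM). A fit with Xist as a covariate was therefore run. A fit without both replicate-3 libraries was run as well. It leaves Xist high in every 2KO-labelled library and low in every control-labelled one, so it cannot separate Xist from the group. The labels call the cells hair follicle cells, while the sorting text attached to them describes interfollicular epidermis, gated on EpCAM, Sca1 and α6-integrin. Ly6a, which encodes Sca1, lay between 1.92 and 7.28 CPM over the 6 libraries, against 683 to 1087 CPM for Itga6, which encodes α6-integrin, and 165 to 358 CPM for Epcam. The basal keratin gene Krt14 lay between 1475 and 4087 CPM.

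Across the family, Nid1, which encodes nidogen-1, rose in 2KO-labelled libraries and Itga1, which encodes the integrin α1 chain, fell, while no other member passed the threshold. Of the 47 members, 43 had enough counts to be tested, and 1 was called higher and 1 lower in 2KO-labelled libraries (edgeR quasi-likelihood test, Benjamini-Hochberg adjusted p under 0.05 over all 14972 tested genes). Called higher was 2.33% of the tested members against 6.61% of all tested genes, and called lower 2.33% against 2.42%. The median log2 fold change, 2KO over control, was 0.15 over the tested members and -0.02 over all tested genes. Groups did not overlap for 10 tested members (23.3%, against 28.4% of all tested genes). Of these, 8 were higher and 2 lower in 2KO-labelled libraries, against 2280 higher and 1966 lower among all 14972 tested genes. For 19 of the 43 (44.2%, against 41.9% of all tested genes) the 95% interval of the log2 fold change lay between -1 and 1, and for the other 24 it reached beyond that range. Among these 24, the intervals of Nid1 (1.40 to 2.60) and Itga1 (-4.14 to -1.44) lay wholly outside the range. For the rest of the 24 a change of that size was not resolved. An unadjusted p under 0.05 was reached by 12 of the 43 (27.9%, against 21.6% of all tested genes). DESeq2 called 5 members higher, where it called 9.45% of all tested genes higher, and over the 15 alternative fits the number called higher lay between 1 and 5 and the number called lower between 0 and 2.

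**Figure D1:**
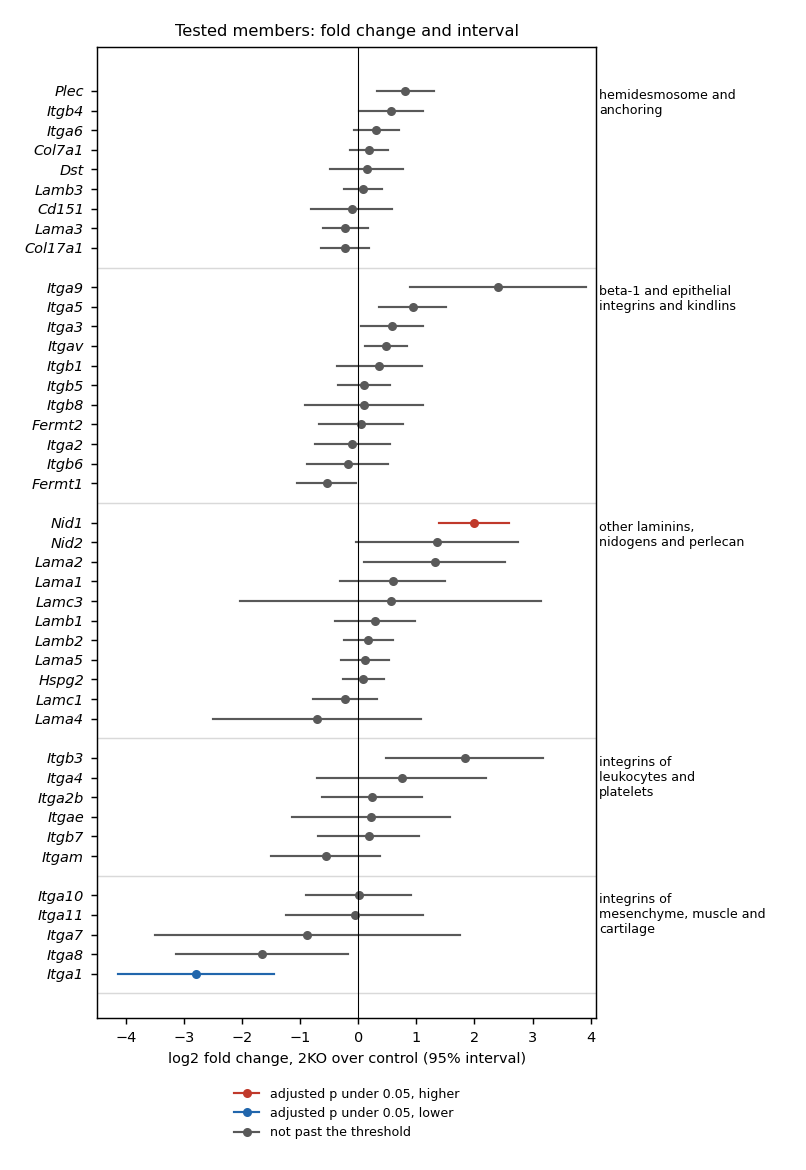
Log2 fold change of 2KO over control (x axis) for 42 of the 43 tested integrin, laminin and hemidesmosome genes, grouped by role down the page, with points for the edgeR estimate and lines for its 95% interval, from 3 libraries per group. Nid1 (red, 2.00) and Itga1 (blue, -2.79) passed the threshold, and the hemidesmosome genes drawn at the top lay between -0.22 and 0.81.

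Promoter sequence was described for the members with a RefSeq window (250 bases before to 50 after the start, GRCm38.p6), which were 31 of 47 with 36 windows. CpG content is shown because Polycomb complexes in mammals are known to gather at CpG islands. The median window of a tested member held 12 CpGs, with an observed over expected ratio of 0.471, against 19 and 0.727 over 14360 windows of all tested genes. Nid1 held 20 CpGs (ratio 0.64), Itga1 12 (ratio 0.499) and Col17a1, shown as a hemidesmosome gene that did not pass, 5 (ratio 0.337). Members that did not pass spanned a wide range, with 37 CpGs in Fermt2, 27 in Hspg2 and 27 in Itgb1, but 1 in Lama2, so both called members lay within the range of those that did not pass. The GC box GGGCGG, searched on both strands, was in the window of Nid1 and not in those of Itga1 and Col17a1, and 60.3% of all tested genes' windows held it. The stretches printed here run 5′ to 3′ on the gene's strand and stop before the first annotated transcribed base, with each CpG in capitals.
Nid1, chr13:13437352-13437550, plus strand: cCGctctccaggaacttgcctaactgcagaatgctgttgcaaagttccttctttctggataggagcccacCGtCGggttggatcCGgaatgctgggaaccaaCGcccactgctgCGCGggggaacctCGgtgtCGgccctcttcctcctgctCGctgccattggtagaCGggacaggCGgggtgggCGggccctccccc
Itga1, chr13:115101965-115102214, minus strand: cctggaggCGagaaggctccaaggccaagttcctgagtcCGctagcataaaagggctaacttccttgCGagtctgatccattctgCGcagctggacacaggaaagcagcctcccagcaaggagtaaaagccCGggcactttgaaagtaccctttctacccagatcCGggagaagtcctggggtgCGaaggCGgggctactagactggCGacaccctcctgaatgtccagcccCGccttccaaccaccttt
Col17a1, chr19:47692095-47692292, minus strand: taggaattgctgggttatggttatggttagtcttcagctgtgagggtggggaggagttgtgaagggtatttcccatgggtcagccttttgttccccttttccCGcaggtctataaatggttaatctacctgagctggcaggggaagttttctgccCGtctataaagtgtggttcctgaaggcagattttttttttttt
These stretches of 199, 250 and 198 bases hold 13, 10 and 2 CpGs.

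Hemidesmosome and anchoring genes were abundant in all 6 libraries, and none of the 10 passed the threshold. The sorting text names a gate on α6-integrin, the product of Itga6, so the levels of Itga6 and its partners may not be independent of the sort. Itga6 was at 958, 873 and 1087 CPM in 2KO-labelled libraries and 683, 787 and 877 CPM in control-labelled libraries (log2 fold change 0.31, 95% interval -0.07 to 0.70, edgeR adjusted p = 0.342). Its β partner Itgb4 was at 1227, 764 and 644 CPM in 2KO-labelled libraries and 513, 626 and 649 CPM in control-labelled libraries (log2 fold change 0.56, 95% interval 0.01 to 1.11, edgeR adjusted p = 0.222). For Itga6 the groups overlapped by a narrow margin, and for Itgb4 the highest value was that of 2KO replicate 1, while 2KO replicate 3 lay within the range of the controls. Without 2KO replicate 1 the log2 fold change of Itgb4 was 0.26. Itga6 lies on chr2:71745616-71858416, plus strand, and Itgb4 on chr11:115974709-116008412, plus strand (GRCm38).

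Plec, which encodes plectin, the plakin that joins β4 integrin to keratin filaments, was the member of this group with the largest difference and missed the threshold by a narrow margin. It stood at 2879, 1847 and 1797 CPM in 2KO-labelled libraries and 1089, 1323 and 1301 CPM in control-labelled libraries (log2 fold change 0.81, 95% interval 0.32 to 1.31, edgeR adjusted p = 0.0512). All 3 libraries labelled 2KO lay above all 3 labelled control, with 2KO replicate 1 the highest. Over 15 alternative fits the adjusted p ran from 0.00691 to 0.172, and it was under 0.05 in 5 of them, among them DESeq2 (0.00691), limma-voom (0.0302) and the fit with DESeq2's size factors (0.0494). Dst, which encodes dystonin, whose epithelial isoform BP230 is the other plakin of the hemidesmosome, was at 6309.8, 3677 and 6924 CPM in 2KO-labelled libraries, against 6482, 4928 and 3877 CPM in control-labelled ones. Its groups overlapped over most of their range (log2 fold change 0.15, 95% interval -0.49 to 0.78, edgeR adjusted p = 0.833). Counts were summed over all isoforms of Dst and Plec, so the epithelial isoforms were not measured apart from the others. Of the exon bases of Plec, 1.13% are shared with Parp10.

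Col17a1, which encodes the transmembrane collagen XVII, was at 1619, 1986 and 1665 CPM in 2KO-labelled libraries, against 1750.1, 2109 and 2299 CPM in control-labelled ones (log2 fold change -0.22, 95% interval -0.64 to 0.19, edgeR adjusted p = 0.552). Cd151, a tetraspanin that associates with α3 and α6 integrins, was at 98, 64.1 and 38.6 CPM in 2KO-labelled libraries, against 69.4, 62.4 and 85.1 CPM in control-labelled ones (log2 fold change -0.11, 95% interval -0.80 to 0.58, edgeR adjusted p = 0.891). In Cd151 the libraries labelled 2KO spread more widely than the controls and enclosed all of them. Col7a1, which encodes the collagen of anchoring fibrils, was at 334, 362 and 377 CPM in 2KO-labelled libraries, against 299, 337 and 308 CPM in control-labelled ones (log2 fold change 0.19, 95% interval -0.15 to 0.52, edgeR adjusted p = 0.545). Its groups lay close together and overlapped.

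For laminin-332, the ligand of α6β4, the genes of the α3 and β3 chains did not pass, and each overlapped between the groups. Lama3, the α3 chain gene, was at 698, 629 and 847 CPM in 2KO-labelled libraries, against 815, 899.8 and 819 CPM in control-labelled ones (log2 fold change -0.22, 95% interval -0.61 to 0.16, edgeR adjusted p = 0.525). Lamb3, the β3 chain gene, was at 222, 207 and 239 CPM in 2KO-labelled libraries, against 213, 210.0 and 209 CPM in control-labelled ones (log2 fold change 0.08, 95% interval -0.25 to 0.41, edgeR adjusted p = 0.825), the narrowest interval among the 10. Since these chains assemble in equal number, as do α6 and β4, ratios within a library were also compared, as log2 ratios of CPM per kb of exon, a choice made after the values were seen. The ratio of Lama3 to Lamb3 was 0.95, 0.90 and 1.12 in 2KO-labelled libraries and 1.24, 1.40 and 1.27 in control-labelled ones, and the groups did not overlap. The ratio of Itgb4 to Itga6 was 0.72, 0.17 and -0.39 in 2KO-labelled libraries and -0.05, 0.03 and -0.07 in control-labelled ones, with overlap. Exact two-sided permutation tests over the libraries gave p = 0.1 for the first and p = 0.7 for the second (0.167 and 0.7 after adjustment over 5 ratios computed), where 0.1 is the smallest value that 3 libraries against 3 allow.

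**Figure D2:**
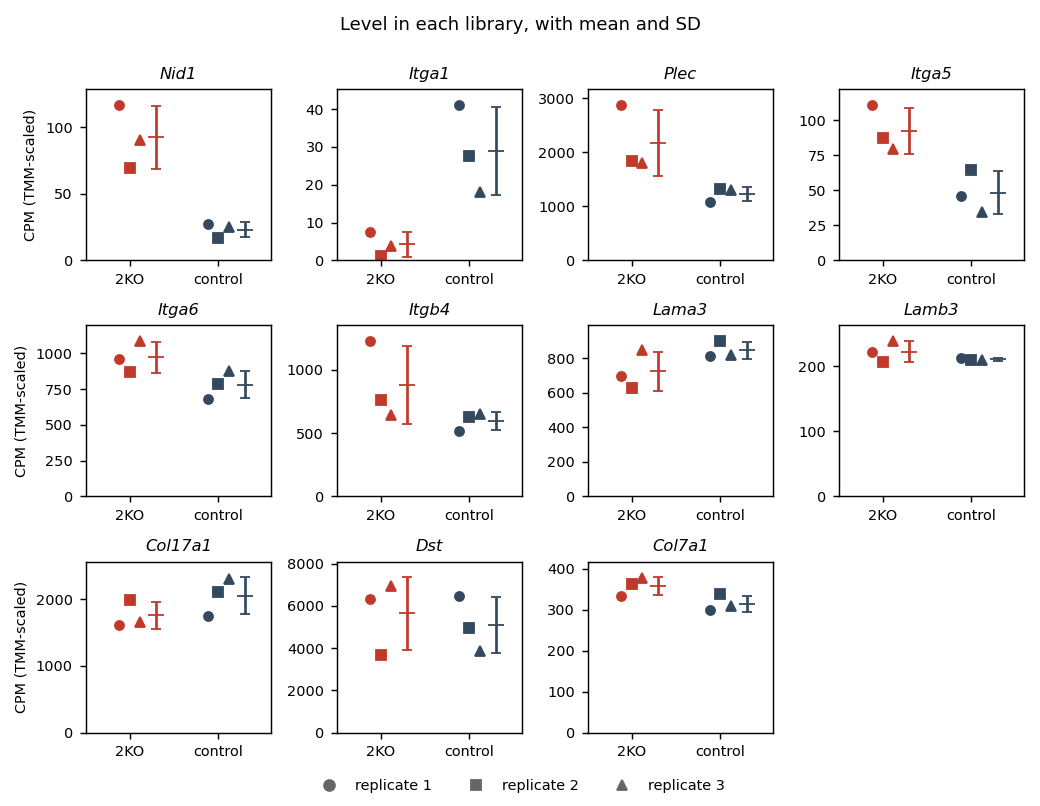
Level of 11 members in each library, in TMM-scaled CPM on a linear axis from 0 (y axis), with libraries labelled 2KO in red on the left and those labelled control in dark blue on the right of each panel; symbols give the replicate number, and the dash with whiskers gives the mean and SD of 3 libraries. Nid1 and Itga1 separate widely, Plec and Itga5 separate with a smaller gap, and the other 7 overlap.

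Among the β1 and epithelial integrins and the kindlins, none of 11 tested members passed the threshold. Of them, 8 had a log2 fold change above 0, against 7282 of all 14972 tested genes. Itgb1, the shared β1 chain gene, was at 554, 229 and 231 CPM in 2KO-labelled libraries and 289.9, 271 and 227 CPM in control-labelled libraries (log2 fold change 0.37, 95% interval -0.36 to 1.09, edgeR adjusted p = 0.595). Its highest value was again that of 2KO replicate 1, and without that library the log2 fold change turned to -0.18. Itga3, the α chain of the laminin receptor α3β1, was at 546, 283 and 335 CPM in 2KO-labelled libraries and 264, 267 and 246 CPM in control-labelled libraries (log2 fold change 0.58, 95% interval 0.05 to 1.11, edgeR adjusted p = 0.187), and Itga2, the α chain of the collagen receptor α2β1, at 49.7, 30.3 and 49 CPM in 2KO-labelled libraries, against 61.6, 43.8 and 32.9 CPM in control-labelled ones (log2 fold change -0.10, 95% interval -0.74 to 0.54, edgeR adjusted p = 0.896). For Itga3 all libraries labelled 2KO lay above the controls, and for Itga2 the groups overlapped.

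Itga5, the α chain of the fibronectin receptor α5β1 (chr15:103344286-103366763, minus strand), was at 111, 87.6 and 79.3 CPM in 2KO-labelled libraries and 45.8, 64.9 and 34.4 CPM in control-labelled libraries. Each library labelled 2KO lay above each one labelled control (log2 fold change 0.94, 95% interval 0.36 to 1.52, edgeR adjusted p = 0.0525). The adjusted p ran from 0.00999 to 0.213 over 15 alternative fits and was under 0.05 in 5, among them the fit with the replicate number as a block (0.0249) and DESeq2 (0.00999). Itga9, the α chain of α9β1, a receptor for tenascin and other ligands, was much lower in level and was named after its values were seen. It was at 22.8, 5.67 and 4.9 CPM in 2KO-labelled libraries and 2.55, 0.969 and 2.75 CPM in control-labelled libraries (log2 fold change 2.41, 95% interval 0.90 to 3.92, edgeR adjusted p = 0.0567), with no overlap and with 2KO replicate 1 far above the rest. Without that library its log2 fold change was 1.35 (edgeR adjusted p = 0.209). It was called higher in 4 of 15 alternative fits, over which the adjusted p ran from 0.00185 to 0.234.

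The αv chain gene Itgav was at 146, 121 and 127 CPM in 2KO-labelled libraries and 92.9, 97.2 and 92 CPM in control-labelled libraries (log2 fold change 0.48, 95% interval 0.12 to 0.84, edgeR adjusted p = 0.106), a small difference without overlap that passed in none of the 15 alternatives. Its epithelial β partners did not pass. Itgb5 was at 67.7 ± 13.4 CPM (2KO-labelled) and 63.1 ± 3.23 CPM (control-labelled) (SD, n = 3 each), Itgb6, whose product activates latent TGF-β, at 38.8 ± 14.6 CPM (2KO-labelled) and 44 ± 13.6 CPM (control-labelled), and Itgb8 at 19.3 ± 4.46 CPM (2KO-labelled) and 18 ± 10.4 CPM (control-labelled), with adjusted p of 0.839, 0.812 and 0.939 (edgeR). Fermt1, which encodes kindlin-1, the kindlin of keratinocytes, was at 164, 226 and 225 CPM in 2KO-labelled libraries, against 371, 306 and 219 CPM in control-labelled ones (log2 fold change -0.54, 95% interval -1.04 to -0.04, edgeR adjusted p = 0.193). The lowest control, replicate 3, lay within the range of the libraries labelled 2KO. Fermt2, which encodes kindlin-2, was at 25.7 ± 10.2 CPM (2KO-labelled) and 24.8 ± 6.54 CPM (control-labelled) (adjusted p = 0.963, edgeR), and per kb of exon Fermt1 was at 44.2 CPM and Fermt2 at 4.86 CPM over all libraries.

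Nidogen-1 gave the clearest difference of the family. Nid1 (chr13:13437551-13512269, plus strand) was at 117, 69.8 and 90.7 CPM in 2KO-labelled libraries and 27.3, 16.8 and 25.3 CPM in control-labelled libraries. The lowest library labelled 2KO lay above the highest control by a wide margin, and the fitted difference was a 4.0-fold rise (log2 fold change 2.00 ± 0.27 SE, adjusted p = 0.00238 by edgeR). It passed in all 15 alternative fits, with log2 fold changes between 1.81 and 2.18 and an adjusted p of at most 0.0449, reached with both replicate-3 libraries left out. No other row of the tables shares exon bases with Nid1 in GENCODE vM21. Since Nid1 is also made by mesenchymal cells, a list of dermal fibroblast markers is given beside it. Of its 14 genes 13 were tested. In 2KO-labelled libraries 5 rose (Col5a1, Col6a1, Pdgfra, Fbn1 and Thy1) and none fell (background 6.61% and 2.42% of all tested genes). The list summed to between 1066 and 1239 CPM (2KO-labelled) and between 554 and 915 CPM (control-labelled). Over 15 alternative fits, Col5a1 was called higher in 15, Pdgfra and Fbn1 in 14 each, Col6a1 in 12 and Thy1 in 10. The fitted rise was 11.3-fold for Pdgfra, 5.44-fold for Col6a1, 5.41-fold for Fbn1, 3.45-fold for Thy1 and 2.47-fold for Col5a1. Col5a1 was at 199.6 to 212 CPM (2KO-labelled) and 70.1 to 93.3 CPM (control-labelled), Fbn1 at 69.4 to 141 CPM (2KO-labelled) and 13 to 28.3 CPM (control-labelled), Col6a1 at 30.5 to 84 CPM (2KO-labelled) and 4.72 to 16.9 CPM (control-labelled), Thy1 at 23 to 60.9 CPM (2KO-labelled) and 9.01 to 18 CPM (control-labelled), and Pdgfra at 7.06 to 16.2 CPM (2KO-labelled) and 0.71 to 1.26 CPM (control-labelled), with no overlap in any of the 5. Dcn, the most abundant gene of that list, overlapped between the groups, at 399 to 527 CPM (2KO-labelled) and 272 to 459 CPM (control-labelled). The fibrillar collagen genes Col1a2 and Col3a1 overlapped as well, at 35.4 to 68.1 CPM (2KO-labelled) and 44 to 84.4 CPM (control-labelled), and at 63.4 to 70.4 CPM (2KO-labelled) and 36.1 to 105 CPM (control-labelled). Lum was at 0.30 to 4.98 CPM (2KO-labelled) and 1.77 to 7.63 CPM (control-labelled), and Twist2 at 0 to 0.0392 CPM (2KO-labelled) and 0.0646 to 0.284 CPM (control-labelled). The part of fibroblast RNA in the rise of Nid1 was not tested, and in bulk samples a different number of cells of a type and a different amount of RNA per cell cannot be told apart.

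Nid2, which encodes the related nidogen-2, was at 15.5, 3.5 and 4.75 CPM in 2KO-labelled libraries and 4.47, 3.03 and 1.73 CPM in control-labelled libraries (log2 fold change 1.36, 95% interval -0.03 to 2.75, edgeR adjusted p = 0.243). Only 2KO replicate 1 stood far above the controls, and the groups overlapped. The log2 ratio of Nid1 to Lamc1, whose γ1 chain carries the nidogen binding site, was -2.52, -2.43 and -2.41 in 2KO-labelled libraries and -4.78, -4.95 and -4.36 in control-labelled ones, per kb of exon (exact two-sided permutation p = 0.1, the smallest possible, 0.167 after adjustment). The gap between the groups was far wider than the spread within either. This ratio, too, was chosen after the values were seen, for a gene already called, so its p-value adds no support.

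The laminin chains of the wider basement membrane did not pass. Lamc1 was at 797, 448 and 574 CPM in 2KO-labelled libraries, against 892, 619 and 619 CPM in control-labelled ones (log2 fold change -0.23, 95% interval -0.77 to 0.32, edgeR adjusted p = 0.673), and Lama5, the α5 chain gene of laminin-511, at 745, 695 and 749.7 CPM in 2KO-labelled libraries, against 833, 627 and 562 CPM in control-labelled ones (log2 fold change 0.12, 95% interval -0.30 to 0.53, edgeR adjusted p = 0.795). In both the groups overlapped, and control replicate 1 was the highest of all 6 libraries. Lamb1 and Lamb2, the genes of the β1 and β2 chains, were at 162 ± 58 CPM (2KO-labelled) and 133 ± 48.6 CPM (control-labelled), and at 144 ± 29.6 CPM (2KO-labelled) and 127 ± 4.14 CPM (control-labelled) (SD, n = 3 each, edgeR adjusted p = 0.677 and 0.67). Hspg2, which encodes perlecan, was at 1251 ± 49.8 CPM (2KO-labelled) and 1175 ± 108 CPM (control-labelled) (log2 fold change 0.09, 95% interval -0.27 to 0.45). Chains of other tissues were low in level. Lama2, the chain of muscle and nerve laminins, was at 8.16, 3.91 and 8.16 CPM in 2KO-labelled libraries, against 3.44, 3.52 and 1.14 CPM in control-labelled ones (log2 fold change 1.32, 95% interval 0.11 to 2.53, edgeR adjusted p = 0.19), with all libraries labelled 2KO above the controls by a narrow margin. Lama1, Lama4 and Lamc3 stayed under 10 CPM in every library, overlapped between the groups and did not pass.

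Itga1 encodes the α chain of α1β1, a receptor for collagen IV that is found mainly on mesenchymal, vascular and some immune cells. The gene (chr13:114953096-115101964, minus strand) was at 7.57, 1.13 and 3.88 CPM in 2KO-labelled libraries and 41.1, 27.6 and 18.1 CPM in control-labelled libraries. The highest library labelled 2KO lay below the lowest control, and the fitted level was 6.91-fold lower (log2 fold change -2.79 ± 0.60 SE, adjusted p = 0.0193 by edgeR). It passed in 11 of 15 alternative fits and missed the threshold without control replicate 1 (adjusted p = 0.0575), without 2KO replicate 3 (0.0764), with Xist as a covariate (0.0825) and without both replicate-3 libraries (0.126, edgeR in each). The log2 ratio of Itga1 to Itgb1, its β chain, was -8.38, -9.85 and -8.08 in 2KO-labelled libraries and -5.01, -5.48 and -5.84 in control-labelled ones, per kb of exon (exact two-sided permutation p = 0.1, the smallest possible, 0.167 after adjustment). That ratio was likewise chosen after the values were seen, for a gene already called, so its p-value adds no support. The log2 fold change of Itga1 over the 15 alternatives ran from -3.53 to -2.33. Its neighbour Itga2 (chr13:114833081-114932100, minus strand), given above, overlapped between the groups.

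Markers of the cell types known for α1β1 were low for endothelial and immune cells. Of the dermal fibroblast list, given above beside Nid1, 5 of 13 tested genes rose and none fell in 2KO-labelled libraries. Of all tested genes, 6.61% were called higher and 2.42% lower. That list summed to between 1066 and 1239 CPM (2KO-labelled) and between 554 and 915 CPM (control-labelled), while Itga1 fell. Endothelial markers summed to between 4.57 and 21.8 CPM (2KO-labelled) and between 7.62 and 15.3 CPM (control-labelled), and none of 7 tested genes of that list of 9 passed. Of the smooth muscle and pericyte list, Acta2 rose, at 6.08 to 18.6 CPM (2KO-labelled) and 2.24 to 3.83 CPM (control-labelled). The 7 other tested genes did not pass, and 6.61% of all tested genes were called higher. Acta2 was called higher in 8 of 15 alternative fits. Its adjusted p ran from 0.000336 (DESeq2) to 0.146 (edgeR without both replicate-1 libraries). The list's summed level was between 384 and 609 CPM (2KO-labelled) and between 259 and 445 CPM (control-labelled), most of it from Cspg4 and Mcam. Immune markers summed to between 13 and 23.1 CPM (2KO-labelled) and between 14.8 and 26.5 CPM (control-labelled), with Cd207 at 0 counts in every library and none of 8 tested genes passing. The part of these cells in the fall of Itga1 was not tested.

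Of the other integrins of mesenchyme, muscle and cartilage, Itga8, a chain of the nephronectin receptor α8β1, was at 5.25, 1.3 and 1.8 CPM in 2KO-labelled libraries and 16.1, 4.33 and 5.92 CPM in control-labelled libraries (log2 fold change -1.65, 95% interval -3.14 to -0.17, edgeR adjusted p = 0.179). The highest value was that of control replicate 1, and 2KO replicate 1 lay among the controls. Itga8 was called lower in 1 of 15 alternatives, the fit with the replicate block (0.0242, in a range of 0.0242 to 0.587), and 5.05% of its exon bases are shared with an antisense gene of the tables. Itga10 and Itga11, chains of collagen receptors of cartilage and fibroblasts, were at 5.08 ± 1.71 CPM (2KO-labelled) and 5.06 ± 0.749 CPM (control-labelled), and at 3.7 ± 2.14 CPM (2KO-labelled) and 3.86 ± 0.895 CPM (control-labelled) (SD, n = 3 each). Neither differed by more than the spread between libraries (edgeR adjusted p = 0.996 and 0.97). Itga7, the chain of muscle laminin receptors, stayed under 1 CPM throughout.

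Integrins of leukocytes and platelets were low in all libraries, and 4 of 10 (Itgal, Itgax, Itgad and Itgb2) had too few counts to be tested. Itgad had 0 counts in 5 of the 6 libraries and reached 0.628 CPM in 2KO replicate 3. Itgb3, the β chain of αIIbβ3 and αvβ3, was at 3.22, 6.27 and 10.4 CPM in 2KO-labelled libraries and 3.05, 1.58 and 0.948 CPM in control-labelled libraries (log2 fold change 1.83, 95% interval 0.48 to 3.18, edgeR adjusted p = 0.0998), without overlap. It was called higher in 3 of 15 alternatives, over which the adjusted p ran from 0.0223 to 0.5. Its platelet partner Itga2b was at 7.44 ± 1.48 CPM (2KO-labelled) and 6.31 ± 2.42 CPM (control-labelled) (adjusted p = 0.796, edgeR), while the other platelet markers Pf4, Ppbp and Gp9 each stayed under 2.2 CPM. Itgae, the αE chain gene of epidermal T cells, was at 1.93 ± 0.86 CPM (2KO-labelled) and 1.66 ± 0.231 CPM (control-labelled) (edgeR adjusted p = 0.89). Itga4, Itgam and Itgb7, chains of leukocyte receptors, did not pass, and for Itgam the 3 libraries labelled 2KO lay just below the controls, at 2.8 to 4.47 CPM (2KO-labelled) and 4.51 to 6.93 CPM (control-labelled).

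Levels of different genes were compared per kb of exon, with union exon lengths from GENCODE vM21. By this measure Col17a1 stood highest over all libraries (317 CPM per kb), followed by Dst (130.4), Itgb4 (105), Itga6 (97.2) and Plec (94.2). Nid1 reached 13.3 CPM per kb in 2KO-labelled and 3.33 in control-labelled libraries, and Itga1 0.226 CPM per kb in 2KO-labelled and 1.56 in control-labelled libraries, so both called members were below each of the 10 hemidesmosome and anchoring genes, which stood at 25.4 or more over all libraries. Union lengths overstate the transcript length of genes with many isoforms, as for Dst, and understate its level.

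The make-up of each chain family was compared by transcript share, which does not measure receptors or laminins as proteins. The sorting text names a gate on α6-integrin, the product of Itga6, so the share of Itga6 may not be independent of the sort. Among integrin α chains, Itga6 took 49.6 ± 6.93% in 2KO-labelled and 52.5 ± 5.24% in control-labelled libraries, Itga3 took 30.3 ± 6.24% in 2KO-labelled and 27.5 ± 1.69% in control-labelled libraries, and Itga5 8.6 ± 1.21% in 2KO-labelled and 5.94 ± 1.81% in control-labelled libraries (SD, n = 3 each). Among β chains, Itgb4 took 52.8 ± 2.99% in 2KO-labelled and 47.9 ± 5.54% in control-labelled libraries, and Itgb1 33.4 ± 5.91% in 2KO-labelled and 36.3 ± 4.46% in control-labelled libraries. Itgb4 and Itgb1 thus made up most of the β chain transcripts in either group. Itga1 took 0.0959 ± 0.0634% in 2KO-labelled and 0.952 ± 0.412% in control-labelled libraries. Of the laminin α chains, Lama3 took 50.6 ± 2.97% in 2KO-labelled and 56.9 ± 5.67% in control-labelled libraries, and Lama5 48.4 ± 2.97% in 2KO-labelled and 42.4 ± 5.37% in control-labelled libraries.

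**Figure D3:**
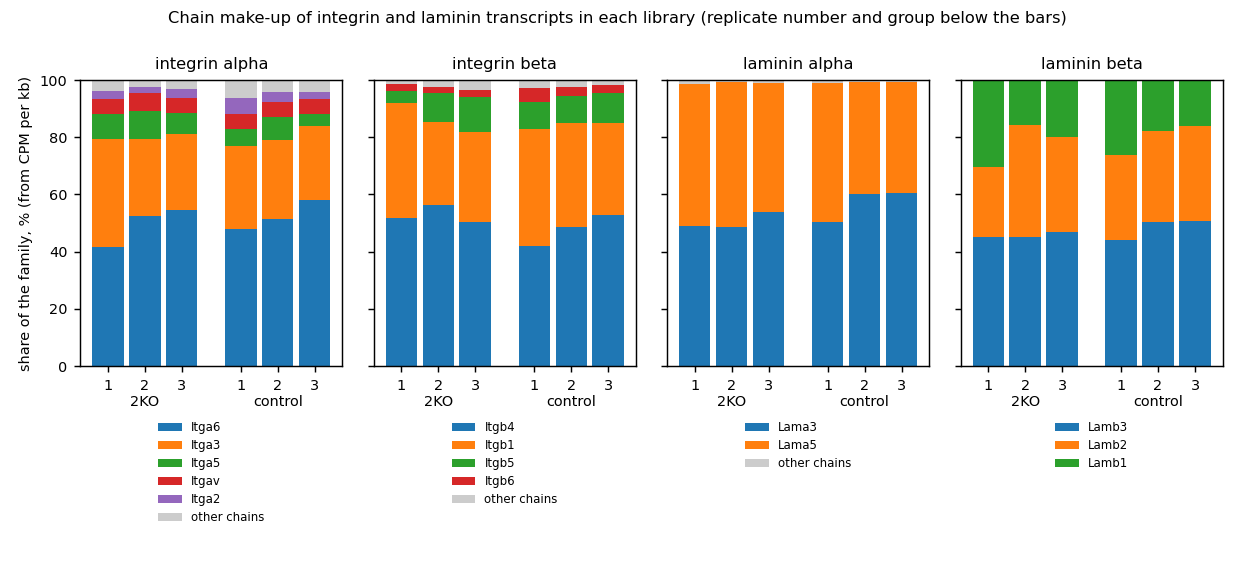
Share of each chain in its family for 4 chain families, in % of the family's summed CPM per kb of exon (y axis), in each library, with replicates 1 to 3 labelled 2KO on the left and replicates 1 to 3 labelled control on the right; chains under 2% in both groups are pooled in grey. Itga6, Itgb4, Lama3 and Lamb3 are the lowest segment of every bar in their panels, and the share of Itga6 lies between 41.7% and 58.1%.

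Genes that act beside the integrins were taken from a pair of lists chosen with earlier results of these data known. In the list of integrin cytoplasmic partners, 7 of 37 tested genes rose in 2KO-labelled libraries and none fell (background 6.61% and 2.42% of all tested genes, list median 0.22). Among them were Tgfb1i1, Kank2, Fblim1, Tns3, Tns4 and Cd81. Tgfb1i1, which encodes the paxillin relative Hic-5, was at 86.8, 89.1 and 74.1 CPM in 2KO-labelled libraries and 15.4, 14.9 and 19.3 CPM in control-labelled libraries (log2 fold change 2.33 ± 0.21 SE, adjusted p = 0.000417 by edgeR). Every library labelled 2KO stood several times above every control. Kank2, which encodes a talin-binding protein at the rim of focal adhesions, was at 74.6, 77.2 and 93.8 CPM in 2KO-labelled libraries, against 37.8, 21.6 and 23.4 CPM in control-labelled ones (log2 fold change 1.57 ± 0.25 SE, adjusted p = 0.00556 by edgeR). Here too the groups were far apart.

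Fblim1, which encodes migfilin, an adaptor that binds kindlin, was at 109 ± 33.1 CPM (2KO-labelled) and 47.3 ± 9.28 CPM (control-labelled) (log2 fold change 1.21 ± 0.26 SE, adjusted p = 0.019 by edgeR), and Tns3, which encodes tensin-3, at 212 ± 18.2 CPM (2KO-labelled) and 103 ± 30.9 CPM (control-labelled) (log2 fold change 1.04 ± 0.23 SE, adjusted p = 0.0231 by edgeR), SD with n = 3 each. Tns4, which encodes tensin-4, was at 492 ± 95.5 CPM (2KO-labelled) and 267 ± 15.6 CPM (control-labelled) (log2 fold change 0.89 ± 0.18 SE, adjusted p = 0.0163 by edgeR), and Cd81, a tetraspanin, at 201 ± 31.1 CPM (2KO-labelled) and 122 ± 2.42 CPM (control-labelled) (log2 fold change 0.71 ± 0.17 SE, adjusted p = 0.0296 by edgeR). The core activator talin-1 did not pass, with Tln1 at 173 ± 16.1 CPM (2KO-labelled) and 159.8 ± 16.8 CPM (control-labelled) (edgeR adjusted p = 0.762). The number of risen partners was 4 without control replicate 2, 3 without control replicate 3 and 2 (with Tgfb1i1 among them) without both replicate-3 libraries. Fblim1 lost its call when replicates 2 or 3 of control or replicate 3 of 2KO were left out, and Tns3 when replicate 3 of control or replicates 1 or 3 of 2KO were. Tns4 lost it without control replicates 2 or 3 or 2KO replicates 2 or 3, and Cd81 in every such fit but that without 2KO replicate 3. No partner was called lower by edgeR, DESeq2 or limma-voom.

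In the list of basement membrane and matrix genes, 4 of 34 tested genes rose in 2KO-labelled libraries and 1 fell (background 6.61% and 2.42% of all tested genes, list median 0.14). Tnc, which encodes tenascin-C, a ligand of α9β1 and other integrins, was at 2656, 1639 and 1709.9 CPM in 2KO-labelled libraries and 419, 965 and 733 CPM in control-labelled libraries (log2 fold change 1.50 ± 0.31 SE, adjusted p = 0.0168 by edgeR). Fbln2, which encodes fibulin-2, a matrix protein that binds nidogen and laminin, was at 231, 303 and 318 CPM in 2KO-labelled libraries, against 123, 113 and 65.7 CPM in control-labelled ones (log2 fold change 1.49 ± 0.25 SE, adjusted p = 0.00659 by edgeR), and Col18a1, a collagen of basement membranes, at 469, 366 and 272 CPM in 2KO-labelled libraries, against 99.8, 185 and 151 CPM in control-labelled ones (log2 fold change 1.35 ± 0.27 SE, adjusted p = 0.0133 by edgeR). None of these 3 overlapped between the groups. Tinagl1, which encodes a matricellular protein, was at 38.2, 12.9 and 11.8 CPM in 2KO-labelled libraries, against 3.83, 6.04 and 3.4 CPM in control-labelled ones (log2 fold change 2.24 ± 0.49 SE, adjusted p = 0.0214 by edgeR), with 2KO replicate 1 far above the others. Its log2 fold change was 1.49 without that library and 1.40 without both replicate-1 libraries. Smoc1, which encodes a calcium-binding matrix protein, fell to 0.745, 0.834 and 1.18 CPM in 2KO-labelled libraries, against 7.56, 3.16 and 2.71 CPM in those labelled control (log2 fold change -2.28 ± 0.60 SE, adjusted p = 0.046 by edgeR).

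Fn1, which encodes fibronectin, the ligand of α5β1, did not pass, at 1574 ± 402 CPM (2KO-labelled) and 974 ± 256 CPM (control-labelled) (log2 fold change 0.69 ± 0.25 SE, adjusted p = 0.132 by edgeR). With the replicate block it did (0.033, in a range of 0.033 to 0.356 over 15 alternatives). The fall of Smoc1 was lost in 11 of the 15 alternatives, including every fit that left out a library. The rise of Tnc was lost without control replicate 3 (0.0501), that of Tinagl1 without control replicate 1 (0.0672) or 3 (0.0766) and, just above the threshold, without 2KO replicate 1, and with Xist as a covariate only Fbln2 still passed. Without both replicate-3 libraries none of the 4 passed, with adjusted p of 0.0565 for Fbln2, 0.0691 for Col18a1, 0.102 for Tinagl1 and 0.12 for Tnc (edgeR in each). Tnc and Col18a1 are also made by fibroblasts, whose markers are given above.

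**Figure D4:**
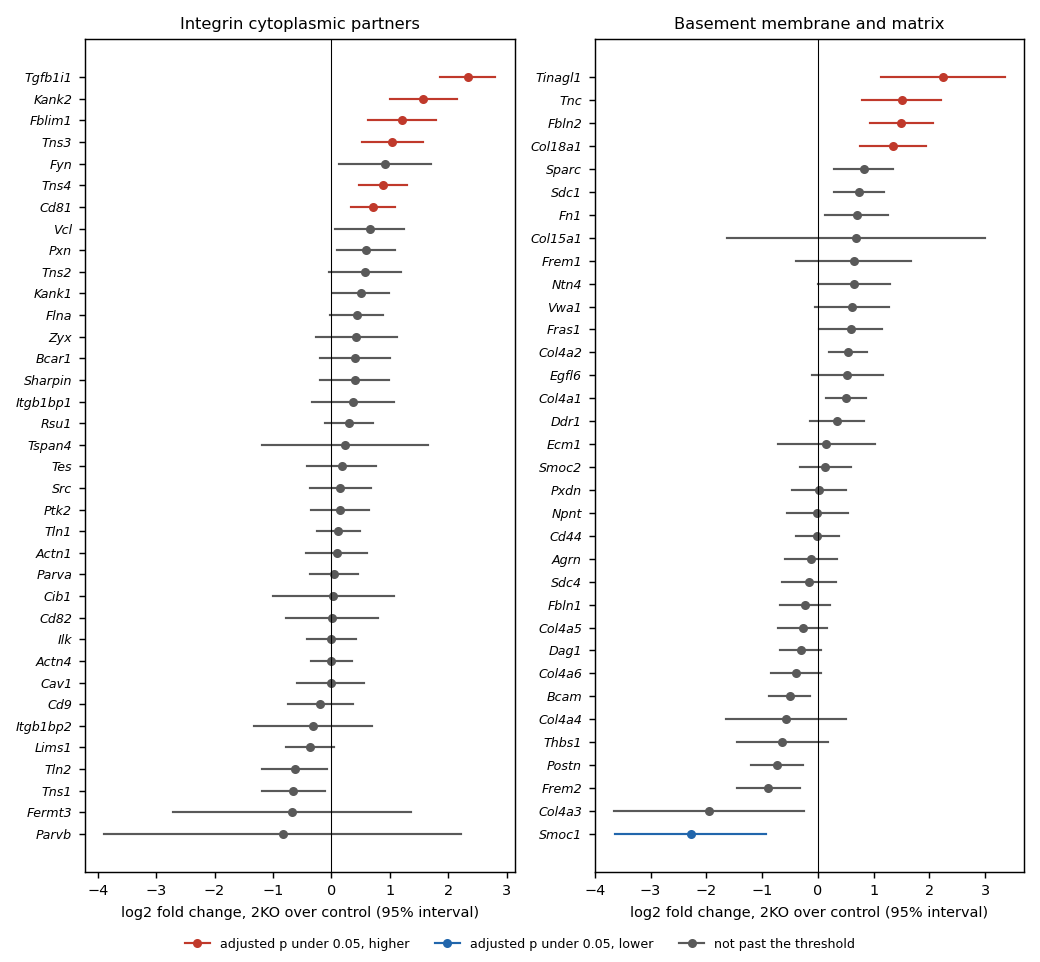
Log2 fold change of 2KO over control (x axis) for 36 of 37 tested integrin cytoplasmic partners (left) and 34 tested basement membrane and matrix genes (right), with the edgeR estimate as a point and its 95% interval as a line, from 3 libraries per group. The 6 and 4 genes in red rose, with Tgfb1i1 (2.33) and Tinagl1 (2.24) at the top, and Smoc1 in blue (-2.28) fell.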

How the data were processed

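The authors deposited counts, whole numbers of reads per gene symbol, in 1 table per library with 24453 rows. The submitters' processing notes name HTSeq 0.6.1, the aligner TopHat2 2.0.13, build mm10, Cufflinks 2.2.1 and DESeq2 1.6.3, without annotation or strand setting. According to the labels' protocols, 10 ng of RNA was amplified with the Ovation kit and sequenced as single reads of 100 nt. Reads without molecular identifiers are not independent molecules.

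Genes were filtered by filterByExpr (14972 kept), scaled by TMM and tested across all genes with the quasi-likelihood test of edgeR 4.0.16 (R 4.3.3), no covariate, Benjamini-Hochberg adjustment and a threshold of 0.05. The SE is the log2 fold change over the square root of F. Alternatives used DESeq2 1.42.0, limma-voom 3.58.1, other scaling and filters, a replicate block, an Xist covariate and left-out libraries. The code was tested on simulated data. Coordinates and exon lengths are GENCODE vM21 (GRCm38), in which all 47 members matched. Members, lists and tests were chosen with earlier results of these data known. Named were members past the threshold, all hemidesmosome genes, members with a mean of at least 20 CPM, and up to 5 partners per list and direction, plus Fn1, Tnc and Tln1. Lama2, Itga8, Itga9, Itgb3 and other low members, Tns4 and Cd81 were named after their values were seen. Lists of cell type markers covered keratinocytes, fibroblasts, endothelium, smooth muscle, immune cells, platelets, melanocytes, Schwann cells, skeletal muscle and Merkel cells. A few genes are not reported here.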

Additional observations from a re-analysis of the deposited data

How the results depend on the processing

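Nid1 passed under all 15 alternatives. The number of members called higher, 1 in the reported fit, was 2 with DESeq2's size factors, 5 with DESeq2, 3 with limma-voom, 4 without the low-count filter, 3 with the replicate block, 2 with the Xist covariate, 2 without both replicate-1 libraries, and 1 to 3 when 1 library was left out. The number called lower was 2 with the replicate block, 0 with the Xist covariate, 0 without both replicate-3 libraries and 0 to 1 when 1 library was left out. For the cytoplasmic partners the number called higher was 2 without both replicate-3 libraries and 3 to 6 when 1 library was left out. For the basement membrane and matrix list, the number called higher was 7 with DESeq2, 1 with the Xist covariate and 1 without both replicate-3 libraries (Sparc, which is none of the 4 reported), and the number called lower was 3 with DESeq2, 2 with limma-voom, 3 without the filter, 3 with the replicate block, 0 with the Xist covariate, 0 without both replicate-3 libraries and 0 to 1 when 1 library was left out. Over all genes, the number called higher was 309 without both replicate-3 libraries and 615 to 854 when 1 library was left out. The number called lower was 733 with DESeq2, 231 with the Xist covariate, 72 without both replicate-3 libraries and 184 to 347 when 1 library was left out. Fits with left-out libraries hold fewer samples; for the other settings the cause was not tested.

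Among uncalled genes the log2 fold change changed sign in some fits. With the Xist covariate it was 0.14 for Itga2 and -0.023 for Fermt2. Without both replicate-1 libraries it was 0.063 for Itga2, -0.10 for Itgb1 and -0.083 for Fermt2. Without both replicate-3 libraries it was -0.019 for Lama5, -0.19 for Dst and 0.30 for Cd151. When 1 library was left out, it ran from -0.29 to 0.18 for Itga2, from -0.18 to 0.59 for Itgb1, from -0.0027 to 0.26 for Itgb5, from -0.53 to 0.10 for Itgb6, from -0.00057 to 0.32 for Lama5, from -0.012 to 0.64 for Lamb1, from -0.018 to 0.39 for Dst, from -0.48 to 0.18 for Cd151 and from -0.32 to 0.29 for Fermt2. Replicate numbers were not taken to pair the libraries, since same-numbered libraries deviated together with correlations of 0.29, 0.089 and -0.076 across genes, and not every library correlated best with its own number; with the block 1142 genes were called higher and 540 lower, against 989 and 362. Low members are limited by depth, as 1 count was worth up to 0.0392 CPM.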

Other observations

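Markers of other cells that the sort could hold were measured beside the adhesion genes. Keratinocyte markers summed to between 29606 and 34342 CPM (2KO-labelled) and between 19857 and 33685 CPM (control-labelled), and none of 8 passed. Trp63 was lower without overlap, at 1179 to 1351 CPM (2KO-labelled) and 1687 to 1951 CPM (control-labelled). Its adjusted p was 0.0872 by edgeR, 0.0359 by DESeq2 and 0.038 by limma-voom. Cdh1 was higher without overlap, at 1542 to 1935 CPM (2KO-labelled) and 1111 to 1446 CPM (control-labelled) (edgeR adjusted p = 0.2). The other genes of the list overlapped. Of the Merkel cell list, Krt18 and Piezo2 rose in libraries labelled 2KO. The 4 other tested genes did not pass, and 6.61% of all tested genes were called higher. Krt18 was at 12.8 to 45.7 CPM (2KO-labelled) and 0.85 to 3.13 CPM (control-labelled). Piezo2 was at 39.5 to 44.5 CPM (2KO-labelled) and 8.76 to 11.5 CPM (control-labelled). Krt20 was lower without overlap, at 0.0668 to 0.549 CPM (2KO-labelled) and 1.17 to 2.52 CPM (control-labelled). Atoh1, which had too few counts to be tested, was also lower without overlap, at 0 to 0.196 CPM (2KO-labelled) and 0.229 to 3.49 CPM (control-labelled). Krt8, Isl1 and Sox2 overlapped. The list summed to between 57 and 93.5 CPM (2KO-labelled) and between 16.5 and 26.8 CPM (control-labelled), most of it from Krt18 and Piezo2. Melanocyte markers summed to between 21.3 and 77.6 CPM (2KO-labelled) and between 31.6 and 37.5 CPM (control-labelled), Schwann cell and nerve markers to between 43.2 and 52.6 CPM (2KO-labelled) and between 26 and 41.4 CPM (control-labelled), and none of 6 tested in either list passed. Skeletal muscle markers summed to between 8.95 and 16.2 CPM (2KO-labelled) and between 7.55 and 14.7 CPM (control-labelled), and none of 3 tested passed. The platelet list summed to between 8.58 and 15.3 CPM (2KO-labelled) and between 8.89 and 14.7 CPM (control-labelled), most of it from Itga2b, itself an integrin gene, and none of 3 tested passed.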
